A study of Mus musculus with 4 samples.

Results

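The immunoglobulin heavy chain variable genes of the mouse were taken as every feature whose symbol starts with Ighv, 185 of the 32287 features counted in each library. Their use was measured in peripheral blood B cells in 2 ways, as the share of all Ighv UMIs (unique molecular identifiers, each standing for 1 captured RNA molecule) and as the share of cells in which a gene held the most Ighv UMIs, here called the top gene. The Cured group held 2 libraries and the Relapsed group 2 libraries, each from blood leukocytes of 3 C57BL/6J mice pooled before capture, 6 mice per group, given as 10 weeks old. All mice had been inoculated with acute lymphoblastic leukaemia and were in remission when bled, 1 week after dasatinib was started, and dasatinib, a kinase inhibitor that blocks ABL and SRC family kinases, was then given for 4 more weeks. The groups were named afterwards by whether a mouse was in remission or had relapsed at day 100, so both carry the same leukaemia, drug and sampling time, and the groups are known only at the level of the pool. The sources used here do not give the genotype of the leukaemia cells. Live cells were sorted after thawing and sequenced with a 5′ droplet kit, which reads RNA from the end that holds the variable segment.

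A heavy chain is assembled in each developing B cell by joining 1 Ighv gene to a diversity and a joining segment, after which transcription from the promoter of the joined Ighv gene carries that segment in front of the constant exons of Ighm and Ighd. The Ighv genes lie upstream of the joining segments as a long array in which members of a family are interspersed, with the Ighv2 and Ighv5 families nearest to the joining segments and the large Ighv1 and Ighv8 families farthest away. In mice the nearest genes are known to be joined most readily early in B cell development, while use of the distant ones depends on contraction of the locus. A mature B cell as a rule expresses 1 heavy chain, so the top gene was taken as a stand-in for the joined segment. Near-identical neighbours can be mistaken for each other, and a top gene with 1 UMI is the least certain.

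The germline ends of 6 genes that the results turn on are shown, as the last 84 bases of the GENCODE M21 transcript, 5′ to 3′ on the coding strand, with capitals from the codon of the conserved cysteine to the end of the segment, the germline start of the third complementarity-determining loop. Ighv1-26 (chr12:114788372-114788805) and Ighv3-6 (chr12:114288152-114288582), both on the minus strand of GRCm38, are shown because they were the most used genes.
Ighv1-26: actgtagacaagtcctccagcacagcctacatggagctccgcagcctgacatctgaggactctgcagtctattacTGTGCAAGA
Ighv3-6: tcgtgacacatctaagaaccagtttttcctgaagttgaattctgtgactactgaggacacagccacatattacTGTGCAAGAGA
Ighv2-2 (chr12:113588267-113588702, minus strand) and Ighv5-2 (chr12:113578504-113578990, minus strand) are shown because they led in cells with a Cdkn2a UMI.
Ighv2-2: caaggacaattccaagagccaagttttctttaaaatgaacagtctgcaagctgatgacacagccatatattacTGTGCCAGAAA
Ighv5-2: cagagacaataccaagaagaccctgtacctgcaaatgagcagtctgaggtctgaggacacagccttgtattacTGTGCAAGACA
Ighv11-2 (chr12:114048241-114048812, minus strand) and Ighv12-3 (chr12:114366521-114366954, minus strand) are shown because they encode the phosphatidylcholine-binding heavy chains typical of mouse B-1 cells.
Ighv11-2: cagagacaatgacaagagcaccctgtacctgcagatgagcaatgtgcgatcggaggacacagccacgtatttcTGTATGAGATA
Ighv12-3: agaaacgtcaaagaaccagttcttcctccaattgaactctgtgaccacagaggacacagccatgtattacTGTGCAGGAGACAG

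All 185 features were found by identifier on chromosome 12 of GENCODE M21, 183 of them on the minus strand, over 2437 kb. The features carry 183 symbols, since Ighv5-8 and Ighv1-13 are each listed for a pair of identifiers. The annotation calls 113 of them V genes, 70 V pseudogenes and 2 partial V genes. In the B cells described below 125 features had a UMI, 115 were the top gene of at least 1 cell and 85 of at least 10 cells. The pseudogenes were the top gene of 31 cells, 0.345% of those assigned, and 16 of these were assigned to Ighv1-2. No UMI was counted in these B cells for 8 of the 113 V genes. Over the last 290 bases of the transcripts, 14 features were at least 98% identical to another one, among them Ighv1-62-2 and Ighv1-71 at 100%, Ighv1-72 and Ighv1-62-3 at 99.3%, and Ighv11-2 and Ighv11-1 at 98.6%, and counts of these are uncertain. The sources used here do not say how reads that fit several genes were counted.

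After barcodes with fewer than 200 genes or over 10% mitochondrial UMIs were removed, 15439 of 16157 barcodes remained, and 11618 of them were B cells by the rule of at least 3 UMIs of Cd79a, Cd79b and Ms4a1 together. The 133 B cells with a UMI of Cdkn2a, the gene of the p16 and p19Arf tumour suppressors, are described apart, which left 2829 and 3157 B cells in the Cured libraries and 2174 and 3325 in the Relapsed libraries. Their median depth was 2251 and 2356 UMIs in the Cured libraries, against 1880 and 2038 in the Relapsed libraries. Each library shared between 60 and 71 barcodes with the others, of 3631 to 4383, and no doublet caller was run. An Igkv UMI, from the kappa light chain variable genes, was found in 95.1% to 96.4% of these B cells in each library.

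The Ighv signal was high in Cured replicates 1 and 2, somewhat lower in Relapsed replicate 2 and far lower in Relapsed replicate 1, which stood apart from the other 3 libraries. An Ighv UMI was found in 88.6% and 89.0% of B cells of the Cured libraries, against 58.1% and 82.0% in the Relapsed libraries. With cells thinned to 1000 UMIs, and 81 to 167 shallower cells per library left out, the shares were 70.3% and 69.7% in the Cured libraries against 37.4% and 62.2% in the Relapsed libraries. The Cured libraries lay above both Relapsed libraries, a difference of 18.8 percentage points between the group means (88.8% ± 0.299 against 70.1% ± 16.9, SD, n = 2 each). The exact two-sided permutation test gave p = 0.33, the smallest value that 2 against 2 libraries allow, and without Relapsed replicate 1 the difference was 6.84 points. T cells, which do not join Ighv genes, had an Ighv UMI in 2.86% and 3.79% of cells of the Cured libraries, at median depths of 3546.5 and 3276 UMIs, against 0.873% and 0.760% in the Relapsed libraries, at 3126 and 3174 UMIs. Neutrophils, the highest background measured, had one in 5.12% and 5.82% of cells of the Cured libraries, at median depths of 988 and 1157 UMIs, against 1.13% and 2.41% in the Relapsed libraries, at 971 and 1009.5 UMIs. Both backgrounds were far below the shares of B cells in every library.

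The constant part of the heavy chain did not follow the variable part. Ighm, the constant region of membrane IgM, averaged 2.23 and 2.36 UMIs per B cell in the Cured libraries against 3.63 and 2.46 in the Relapsed libraries, and Ighd, that of IgD, 1.25 and 1.43 against 2.06 and 1.46. Relapsed replicate 1 was thus the highest of the 4 libraries for both constant genes and the lowest for Ighv. The ratio of Ighv UMIs to Ighm and Ighd UMIs was 1.23 and 1.02 in the Cured libraries against 0.202 and 0.713 in the Relapsed libraries. The light chain showed the same order, with 6.90 and 6.58 Igkv UMIs per Igkc UMI in the Cured libraries against 3.06 and 5.68 in the Relapsed libraries. Relapsed replicate 1 also had the lowest median depth and the most barcodes under 200 genes, 279 of 3631, against 24 to 28 in the other libraries. The part of these in the result was not tested, and the mice of a pool and the handling of its library cannot be told apart.

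**Figure D1:**
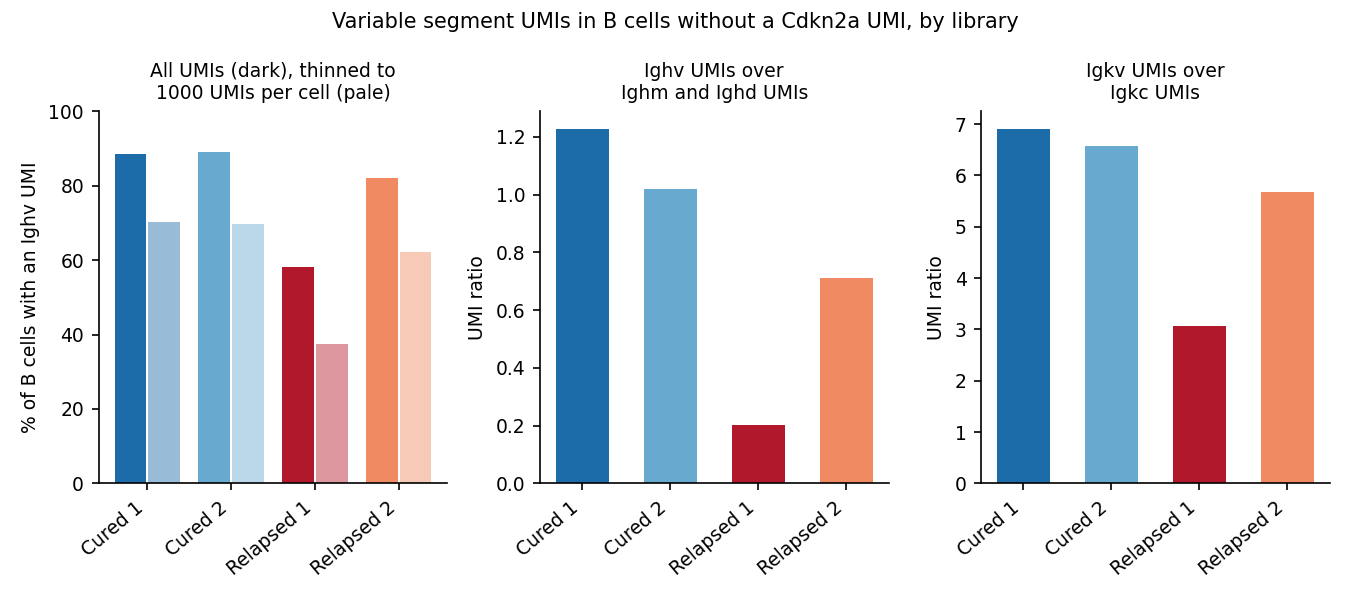
Variable segment UMIs in B cells without a Cdkn2a UMI, 1 bar per library (n = 2 Cured, 2 Relapsed). The left panel gives the percent of B cells with an Ighv UMI with all UMIs (dark) and after thinning to 1000 UMIs per cell (pale), the middle panel the ratio of Ighv to Ighm and Ighd UMIs and the right panel the ratio of Igkv to Igkc UMIs; Relapsed replicate 1 is lowest in all panels, at 58.1%, 0.202 and 3.06.

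A single top Ighv gene could be assigned in 8984 of the 11485 B cells, 2408 and 2724 in the Cured libraries and 1221 and 2631 in the Relapsed libraries, while 324 cells were tied and the rest had no Ighv UMI. The top gene held at least 2 UMIs in 82.1% and 82.7% of assigned cells of the Cured libraries, against 47.4% and 73.4% in the Relapsed libraries. A second Ighv gene with at least 2 UMIs was present in 4.03% and 5.10% of assigned cells in the Cured libraries against 0.573% and 2.47% in the Relapsed libraries.

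Use was spread over the whole locus, with no gene above 6% of the cells in any library. Ighv1-26 led with a mean of 5.43% ± 0.165 of assigned B cells (SD, n = 4 libraries). Its share was 5.40% and 5.21% in the Cured libraries and 5.57% and 5.55% in the Relapsed libraries. Ighv3-6 followed with 4.07% and 4.48% in the Cured libraries and 4.91% and 4.07% in the Relapsed libraries. Both genes led in all 4 libraries, and the spread of Ighv1-26 was narrow, its highest library being 1.07 times its lowest. The next genes had close means, so that neighbours in the order did not differ beyond their spread: 3.40% ± 0.236 for Ighv1-64, 3.14% ± 0.270 for Ighv1-72, 3.14% ± 0.298 for Ighv1-81, 3.1% ± 0.771 for Ighv8-8, 3.07% ± 0.381 for Ighv9-3 and 2.97% ± 0.310 for Ighv1-82. Ighv1-80, Ighv1-9, Ighv1-53 and Ighv8-12 completed the 12 most used genes with means between 2.06% and 2.81%. Ighv1-72 encodes the heavy chain that dominates the response of C57BL/6 mice to the hapten NP, and its count is uncertain because of Ighv1-62-3. Of the 12 genes 8 belong to the Ighv1 family, and Ighv1-26, a single gene 1359 kb from the joining segment Ighj1, had a larger mean share than 11 of the 15 families in use.

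Shares of single genes were alike between libraries. Across the 85 genes with at least 10 cells, Spearman's rho between libraries lay between 0.853 (Cured replicate 2 with Relapsed replicate 1) and 0.941 (Cured replicate 1 with Relapsed replicate 2), a description over genes, with the fewest cells in Relapsed replicate 1. The effective number of genes by the Simpson index, the number of equally used genes that would give the same diversity, was 48.7 and 50.5 in the Cured libraries against 46.7 and 49.1 in the Relapsed libraries. The difference of 1.71 between the group means (49.6 ± 1.29 against 47.9 ± 1.72, SD, n = 2 each) had an exact permutation p = 0.667. The 10 most used genes of each library held 34.3% and 32.9% of the cells in the Cured libraries against 36.0% and 33.1% in the Relapsed libraries (exact permutation p = 0.667), and the groups overlapped in both measures. The 3 genes with at least 40 cells that varied most were Ighv2-5, Ighv9-2 and Ighv14-3, whose highest library share was 4.93, 4.93 and 4.78 times the lowest. In each of them Relapsed replicate 1 was lowest, with 2, 2 and 3 cells.

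**Figure D2:**
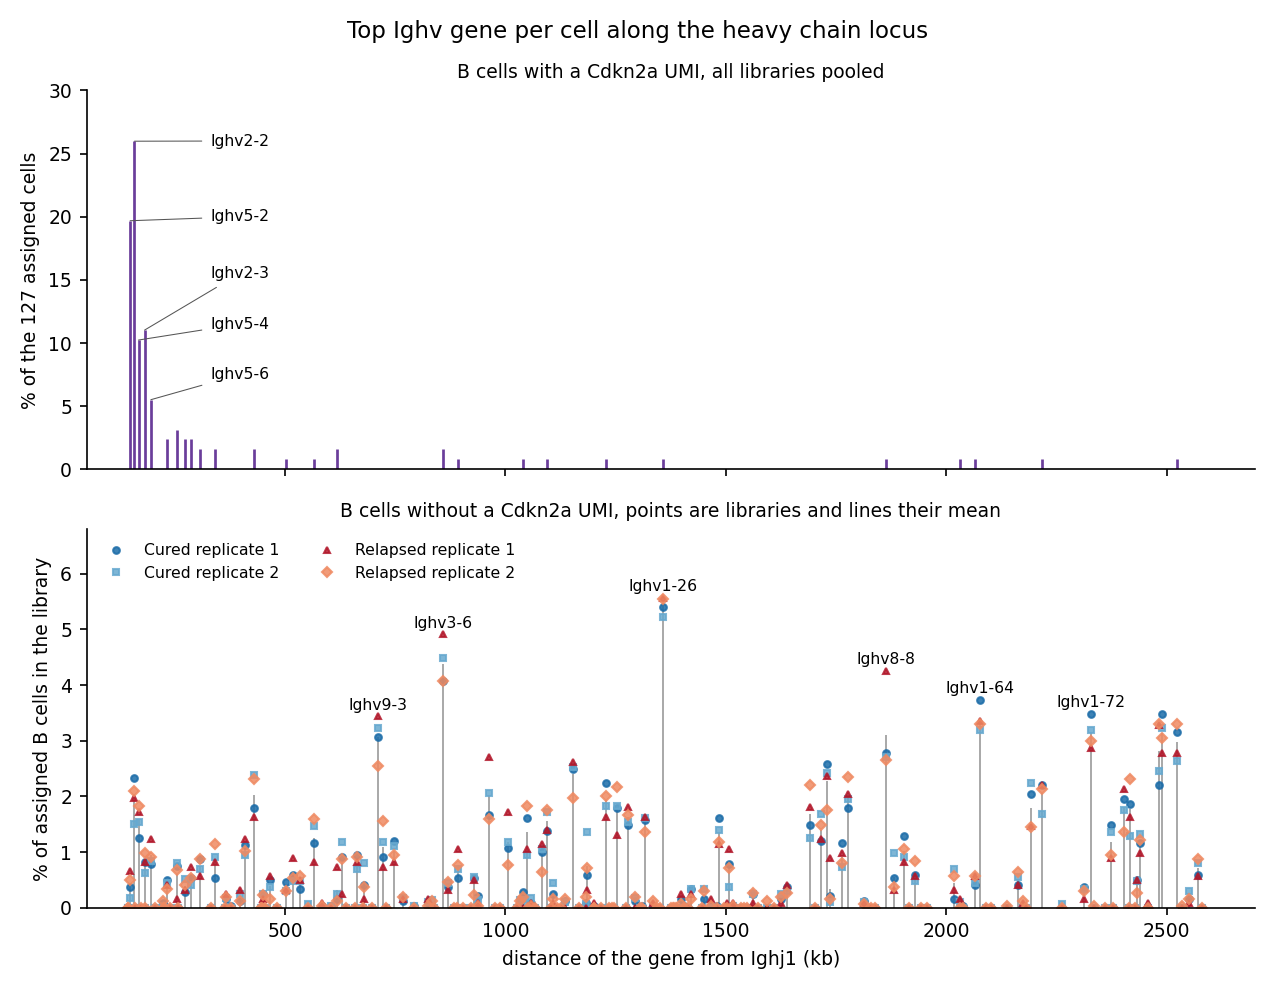
Percent of assigned B cells by top Ighv gene (y axis, linear) against the distance of the gene from Ighj1 in kb (x axis). The upper panel pools the 127 assigned cells with a Cdkn2a UMI, which gather at Ighv2-2, Ighv5-2, Ighv2-3, Ighv5-4 and Ighv5-6 at the near end; the lower panel shows cells without one, a point per library and a line to the mean of 4 libraries, led by Ighv1-26 at 5.43%.

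By family, Ighv1 took most of the cells, with 59.1% and 58.0% in the Cured libraries and 55.0% and 57.7% in the Relapsed libraries (mean 57.4% ± 1.75, SD, n = 4). It has 93 of the 185 features and 53 of the 113 V genes. Ighv5 followed with 7.10% and 7.82% in the Cured libraries and 8.11% and 8.32% in the Relapsed libraries. Ighv8 held 5.69% and 4.96% in the Cured libraries and 7.78% and 5.51% in the Relapsed libraries. Ighv3 and Ighv2 averaged 5.98% ± 0.660 and 5.29% ± 0.566 over the 4 libraries. Ighv11 and Ighv12 averaged 0.337% ± 0.282 and 0.119% ± 0.0743, and the single Ighv16 gene was the top gene of 0 cells. Cut into 5 stretches of equal length, the locus gave 16.8% and 17.2% of cells from the nearest stretch in the Cured libraries against 17.2% and 18.5% in the Relapsed libraries, and 25.1% and 23.7% from the farthest stretch in the Cured libraries against 22.9% and 24.6% in the Relapsed libraries. The middle 3 stretches gave between 18.2% and 21.7% in each library.

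Cured and Relapsed libraries were then compared by the number of cells per top gene, with edgeR's quasi-likelihood test on 85 genes. It called 0 genes (0% of those tested) at an adjusted p under 0.05, and 5 had an unadjusted p under 0.05. DESeq2 called 0 as well, as did each fit without 1 library. The smallest p was that of Ighv1-80, with 2.20% and 2.46% of cells in the Cured libraries against 3.28% and 3.31% in the Relapsed libraries. Its log2 fold change was -0.49 (SE 0.19, adjusted p = 0.645). Its groups did not overlap and its change did not pass the test. Ighv1-50 had 1.50% and 1.25% in the Cured libraries against 1.80% and 2.20% in the Relapsed libraries (-0.60, SE 0.27, adjusted p = 0.645). Ighv8-6 had 0.208% and 0.110% in the Cured libraries against 0.901% and 0.152% in the Relapsed libraries (-1.37, SE 0.66, adjusted p = 0.645), and its direction turned without Relapsed replicate 1 (0.0358). Over the 15 families in use the test called 0 (0%), and DESeq2 did likewise, no family having an unadjusted p under 0.05. The smallest family p was that of Ighv8 (log2 fold change -0.28, SE 0.20), and Ighv12, Ighv5 and Ighv1 were at 1.65 (SE 1.20), -0.14 (SE 0.11) and 0.05 (SE 0.05), each with an adjusted p = 0.847. Ighv12 rests on 5 and 4 cells in the Cured libraries against 1 and 1 in the Relapsed libraries.

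**Figure D3:**
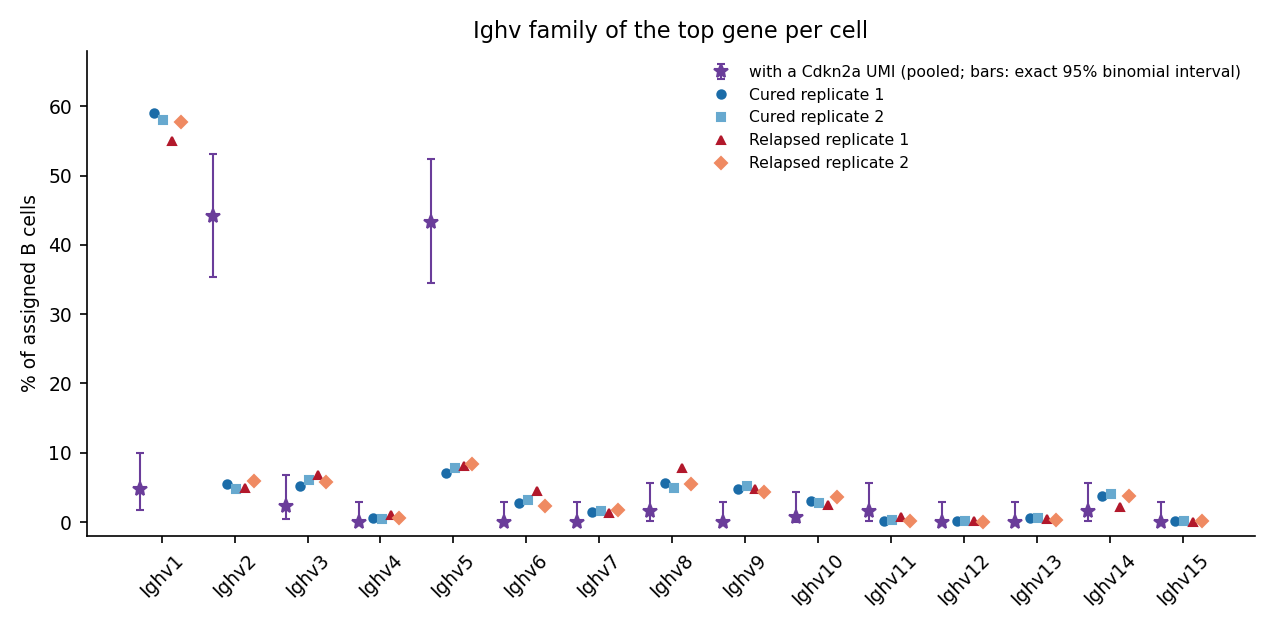
Percent of assigned B cells (y axis, linear) whose top gene belongs to each Ighv family (x axis), for cells with a Cdkn2a UMI pooled over libraries (stars, with exact 95% binomial intervals) and for cells without one (a point per library, n = 2 Cured, 2 Relapsed). Cells with a Cdkn2a UMI stand at 44.1% for Ighv2, 43.3% for Ighv5 and 4.72% for Ighv1, while the libraries lie between 55.0% and 59.1% for Ighv1.

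Summed UMIs carried the difference in Ighv signal described above. In the fit of UMIs per library over all 10451 features that passed the count filter, 86 of 89 Ighv genes had a positive log2 fold change, Cured over Relapsed, with a median of 0.71, against a median of -0.00 over all features. The test called 0 of the 10451 features (0%), and 35 of the 89 Ighv genes had an unadjusted p under 0.05, all higher in Cured. How many of all features reached that level was not counted, so the 35 cannot be set against a share of all features. DESeq2 called 4 features, 0 of them Ighv. The median and the calls rested on single libraries: without Relapsed replicate 1 the median was 0.36 with 0 Ighv calls among 3 over all features, and without Relapsed replicate 2 it was 1.59 with 56 Ighv calls among 1544 of 10810 features. Without Cured replicate 1 there were 3 Ighv calls among 6 in all, and without Cured replicate 2 there were 2 among 10. As a share of all Ighv UMIs, which removes the common shift, the median was -0.08 with 0 calls and 1 gene at an unadjusted p under 0.05. The smallest p-values in the fit over all features were those of Ighv12-3, Ighv1-5 and Ighv1-9. Ighv12-3 had 58 and 35 UMIs in the Cured libraries against 1 and 5 in the Relapsed libraries, from few cells, of which the richest had 18 UMIs. Its log2 fold change was 3.63 (SE 0.58, adjusted p = 0.390). Ighv1-5 had 119 and 152 UMIs in the Cured libraries against 30 and 55 in the Relapsed libraries (1.36, SE 0.22, adjusted p = 0.390). Ighv1-9 had 238 and 302 UMIs in the Cured libraries against 63 and 142 in the Relapsed libraries (1.11, SE 0.21, adjusted p = 0.541). For all 3 genes each Cured library exceeded each Relapsed library in UMIs as counted, and none passed this test. These counts are not scaled to the Ighv UMIs of each library. Those totals were 12086 and 12188 in the Cured libraries against 2492 and 9297 in the Relapsed libraries, the same order as for the 3 genes. How many other Ighv genes had this order was not counted. All 3 passed without Relapsed replicate 2 (adjusted p = 0.0259, 0.0140 and 0.0108) and with no count filter, and Ighv12-3 also without Cured replicate 2 (adjusted p = 7.05e-07).

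Single Jchain-rich cells moved the UMI shares far more than the cell shares. Only 2 B cells had at least 3 UMIs of Jchain, which joins secreted IgM and IgA. The cell in Cured replicate 1 had 424 Jchain UMIs and 1767 Ighv UMIs, 1746 of them Ighv9-3, and it alone held 14.6% of the Ighv UMIs of its library. The cell in Relapsed replicate 2 had 137 Jchain UMIs and 503 Ighv UMIs, all Ighv6-3, which was 5.41% of that library's Ighv UMIs. Both had 0 Ighm UMIs, with 238 and 226 UMIs of switched constant regions. Ighv9-3 accordingly took 17.0% and 2.90% of Ighv UMIs in the Cured libraries against 3.49% and 1.93% in the Relapsed libraries, while its share of cells was 3.07% and 3.23% against 3.44% and 2.55%.

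Ighv11-2, Ighv12-3, Ighv7-1 and Ighv5-2 were each the top gene of few cells. Ighv11-2 was the top gene of 4 and 7 cells in the Cured libraries against 9 and 3 in the Relapsed libraries, and Ighv12-3 of 5 and 4 against 1 and 1. Ighv7-1, which encodes the classical heavy chain against phosphorylcholine in mice, was the top gene of 12 and 10 cells in the Cured libraries against 7 and 4 in the Relapsed libraries. Ighv5-2, the V gene nearest to the joining segments among those in use, was the top gene of 9 and 5 cells in the Cured libraries against 8 and 13 in the Relapsed libraries. As shares of assigned cells, the groups overlapped for Ighv11-2 and Ighv7-1. Ighv7-1 was at 0.498% and 0.367% in the Cured libraries against 0.573% and 0.152% in the Relapsed libraries. The groups did not overlap for Ighv5-2, at 0.374% and 0.184% in the Cured libraries against 0.655% and 0.494% in the Relapsed libraries. Ighv12-3 did not overlap either, and was higher in the Cured libraries. Neither passed edgeR's test of cell counts (adjusted p = 0.645 for Ighv5-2 and 0.790 for Ighv12-3). How many of the 85 genes tested did not overlap was not counted. Among these B cells with at least 3822 UMIs, Ighv5-2 had 0.633% and 0.427% in the Cured libraries against 3.85% and 2.58% in the Relapsed libraries. Ighv5-2 was frequent in cells with a Cdkn2a UMI, and the part of such cells without a captured UMI in its share was not tested.

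Many of the few cells that used Ighv11-2 carried the light chain known from mouse B-1 cells, and a smaller part had a UMI of a B-1 gene. Igkv14-126, the kappa gene usually paired with Ighv11-2 in phosphatidylcholine-binding cells, was the top Igkv gene of 14 of 21 Ighv11-2 cells with an assigned Igkv gene (66.7%, exact 95% binomial interval 43.0% to 85.4%), against 53 of 8514 other cells (0.623%, 0.467% to 0.813%). These intervals cover counting error only. By library the pair was found in 2 of 3 and 4 of 7 Ighv11-2 cells of the Cured libraries, against 8 of 9 and 0 of 2 of the Relapsed libraries. It was the most frequent heavy and light chain pair of Relapsed replicate 1, with 8 of 1143 cells. No other library had it among its 5 most frequent pairs, which there were led by pairs with Ighv1-26 or Ighv1-15. Igkv4-91, the usual partner of Ighv12-3, was found in 3 of 11 Ighv12-3 cells (27.3%, 6.02% to 61.0%) against 56 of 8524 other cells (0.657%). A UMI of any of 4 B-1 genes (the transcription factors Bhlhe41 and Zbtb32 and the surface proteins Cd5 and Spn) was found in 6 of 23 Ighv11-2 cells (26.1%, 10.2% to 48.4%), against 2.34% of other assigned cells (2.04% to 2.68%). Bhlhe41, Zbtb32, Cd5 and Spn were found in 4, 2, 1 and 1 of these 23 cells. Fcer2a, the CD23 receptor of follicular B cells, was found in 17.4% of Ighv11-2 cells against 49.3% of the others, although the Ighv11-2 cells were deeper, with a median of 3226 against 2217 UMIs. Greater depth also favours finding a UMI of the B-1 genes, and cells of matched depth were not compared. The cells come from pools, so sister cells of 1 clone cannot be told apart from independent cells.

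Cells with a Cdkn2a UMI used a narrow set of genes at the near end of the locus. There were 133 such B cells, 3 and 31 in the Cured libraries and 31 and 68 in the Relapsed libraries, and 127 of them had a single top gene. A Cdkn2a UMI was found in 1 of 1193 T cells (0.0838%, median 3283 UMIs). Another 3 cells with a Cdkn2a UMI failed the B cell rule, and 0 of them had an Ighv UMI. Of the 127 cells 111 used an Ighv5 or Ighv2 gene (87.4%, exact 95% binomial interval 80.3% to 92.6%), against 1181 of 8984 cells without a Cdkn2a UMI (13.1%, 12.5% to 13.9%). By library these were 3 of 3 and 25 of 31 cells in the Cured libraries, and 22 of 27 and 61 of 66 in the Relapsed libraries, against 12.6%, 12.6%, 13% and 14.3% of cells without a Cdkn2a UMI. The pattern was thus present in every library, although Cured replicate 1 gave only 3 cells. The nearest of the 5 stretches of the locus, up to 630 kb from Ighj1, held 115 of the 127 cells (90.6%), and the median distance from Ighj1 was 168 kb against 1359 kb in cells without a Cdkn2a UMI.

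**Figure D4:**
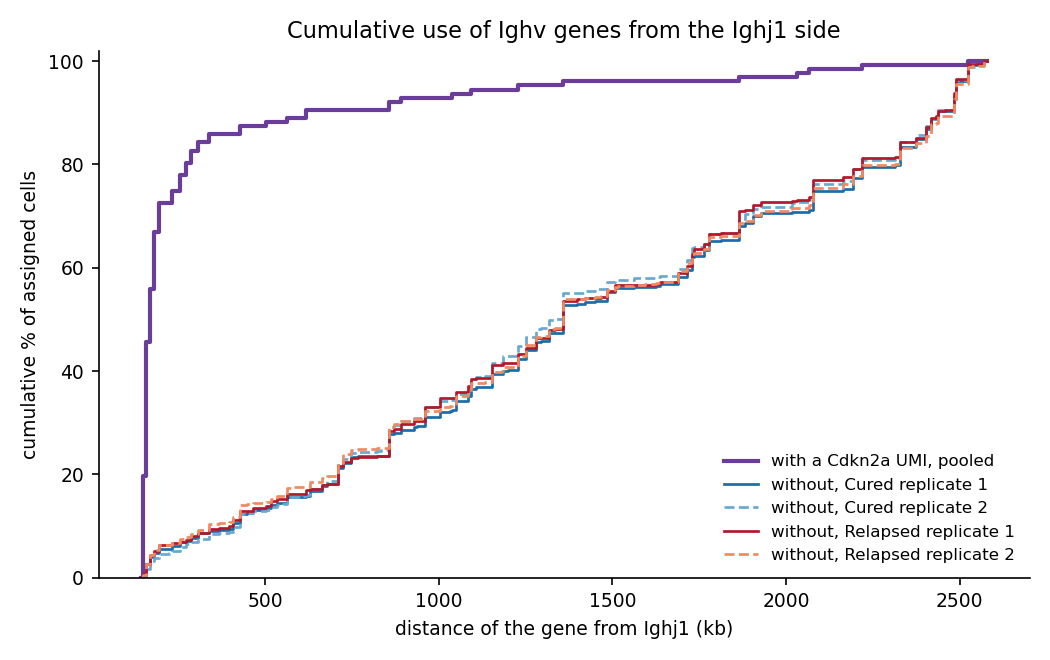
Cumulative percent of assigned B cells (y axis) by distance of their top Ighv gene from Ighj1 in kb (x axis). Cells with a Cdkn2a UMI (purple, 127 cells pooled over libraries) reach 90.6% within 630 kb, while the 4 libraries of cells without one climb along the whole locus and have 16.8% to 18.5% there.

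The 5 leading genes all lie among the first 10 of the 185 features counted from Ighj1. Ighv2-2, 158 kb from Ighj1, was the top gene of 33 of the 127 cells, 1 and 8 in the Cured libraries and 3 and 21 in the Relapsed libraries, against a mean of 1.97% ± 0.345 of cells without a Cdkn2a UMI (SD, n = 4). Ighv5-2, 149 kb from Ighj1, was that of 25 cells, 0 and 3 in the Cured libraries and 9 and 13 in the Relapsed libraries (19.7%, 13.2% to 27.7%, against 0.390%, 0.272% to 0.541%). Ighv2-3, Ighv5-4 and Ighv5-6 followed with 14, 13 and 7 cells. In edgeR's test of cell counts with the library as a block, a comparison chosen after these values were seen, the 5 genes were higher in cells with a Cdkn2a UMI (5.88% of 85 genes tested). The log2 fold changes were 5.41 for Ighv5-2 (SE 0.59, adjusted p = 8.17e-16), 3.75 for Ighv2-2 (SE 0.37, adjusted p = 1.05e-18), 3.69 for Ighv2-3 (SE 0.54, adjusted p = 2.01e-09), 2.57 for Ighv5-4 (SE 0.51, adjusted p = 2.32e-05) and 2.52 for Ighv5-6 (SE 0.69, adjusted p = 0.00696). Ighv5-6 did not pass without Cured replicate 2 (2.04, adjusted p = 0.192) or without Relapsed replicate 2 (2.70, adjusted p = 0.147), and the other 4 passed in every fit without 1 library.

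Of the 12 most used genes of the other B cells 5 were called lower among them. Ighv1-26 was the top gene of 1 of the 127 cells (log2 fold change -2.78, SE 0.85, adjusted p = 0.0490). Ighv1-64, Ighv1-72, Ighv1-80 and Ighv1-81 had 0 cells, which allows a share of up to 2.36% each by the limit of 3 counts and 2.86% by the exact 95% interval, and passed at the same adjusted p = 0.0490. The other 7 did not pass, among them Ighv3-6 with 2 cells (-1.46, adjusted p = 0.224), Ighv8-8 and Ighv1-82 with 1 cell each (-1.92 and -1.93, adjusted p = 0.224) and Ighv9-3 with 0 cells (adjusted p = 0.0523). The 5 genes made up the lower calls (5.88% of genes tested), and 0 of the lower calls passed in any fit without 1 library. By family, Ighv2 and Ighv5 were higher (13.3% of 15 families) and Ighv1 and Ighv9 lower (13.3%). Ighv9 had 0 cells, and its call (adjusted p = 0.00984) was lost without Cured replicate 1 (adjusted p = 0.0897), Relapsed replicate 1 (0.0950) or Relapsed replicate 2 (0.106). Ighv2 had 44.1% of the cells (35.3% to 53.2%; log2 fold change 3.02, SE 0.28, adjusted p = 2.04e-13) and Ighv5 43.3% (34.5% to 52.4%; 2.41, SE 0.25, adjusted p = 4.43e-12), against means of 5.29% and 7.84% of cells without a Cdkn2a UMI. Ighv1 had 4.72% (1.75% to 10.0%; -3.60, SE 0.18, adjusted p = 7.56e-23) against 57.4%. TMM scaling, which takes the middle of the genes as unchanged, turned the split of genes to 1 higher and 51 lower and that of families to 0 higher and 10 lower, so the calls are of shares of cells.

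These cells were deeper and carried more heavy chain UMIs than other B cells, with a median of 4893 against 2151 UMIs in all and 14 against 2 Ighv UMIs. Cells without a Cdkn2a UMI were then taken at 3822 UMIs or more, the lower quartile of those with one. Of these, 106 of 625 used an Ighv5 or Ighv2 gene (17.0%, 14.1% to 20.1%), with a median of 4626 UMIs and 5 Ighv UMIs. By library the shares were 15.8% and 14.1% in the Cured libraries against 19.2% and 21.3% in the Relapsed libraries. Cells with a Cdkn2a UMI below 3822 UMIs were kept, so depth was matched only in part. Against the cells of at least 3822 UMIs, here called matched depth, 12 of 32 genes tested were called, 5 higher and 7 lower. Cells of both kinds counted towards the limit of 10 cells per gene. A gene frequent in cells with a Cdkn2a UMI, such as Ighv5-2, could thus enter the test through them. The higher calls were the same 5 genes, with smaller log2 fold changes for 4 of them. These were 3.11 for Ighv5-2 (whose share at matched depth was 1.44%), 2.65 for Ighv2-2, 1.71 for Ighv5-4 and 2.20 for Ighv5-6. Ighv2-3 was at 4.45. Ighm averaged 10.1 UMIs per cell with a Cdkn2a UMI against 5.06 in the cells of matched depth, and Ighd 1.08 against 2.29. A second Ighv gene with at least 2 UMIs was found in 2 of 3 and 5 of 31 assigned cells with a Cdkn2a UMI of the Cured libraries, against 26.6% and 25.2% at matched depth, and in 14.8% and 7.58% of those of the Relapsed libraries, against 2.56% and 20.6%, with no common direction. Fcer2a had a UMI in 10.5% of cells with a Cdkn2a UMI against 58.3% at matched depth. By library these were 3 of 3 and 4 of 31 cells in the Cured libraries, and 3 of 31 and 4 of 68 in the Relapsed libraries. Cured replicate 1, with its 3 cells, thus went the other way, against 59.2% at matched depth. Vpreb1, part of the surrogate light chain of precursor B cells, had a UMI in 0 of 3 and 0 of 31 cells with a Cdkn2a UMI of the Cured libraries and in 3 of 31 and 6 of 68 of the Relapsed libraries, against 4 of 736 cells at matched depth. The other precursor B cell genes looked at were rare in both. Igll1, Rag1 and Dntt had a UMI in 1, 1 and 0 of the 133 cells, against 0, 1 and 2 of the 736. A UMI of GFP_1, a reporter listed among the features, was found in 17 of the 133 cells (12.8%) against 1 of 11485 without a Cdkn2a UMI, and of BCR_ABL_1 in 0. All 14 assigned cells with both a Cdkn2a and a GFP_1 UMI used an Ighv5 or Ighv2 gene (exact 95% interval 76.8% to 100%), spread over 5 genes.

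No single Ighv gene, or pair of Ighv and Igkv genes, held most of these cells. They used 26 Ighv genes, with an effective number of 7.71 by the Simpson index, against 52.8 in the cells of matched depth. Of the 101 with an assigned Igkv gene as well, 86 distinct Ighv and Igkv pairs were counted, and the most frequent pairs, Ighv2-2 with Igkv6-15, Ighv5-2 with Igkv3-12 and Ighv5-2 with Igkv6-17, had 3 cells each. The top Igkv gene was taken without a lower limit of UMIs, and the part of free kappa RNA in the pairs was not tested. The sequences at the joins were not read, so rearrangements as such were not seen. Another 2 cells, both in Relapsed replicate 1, used Ighv11-2, and 2 of the 101 carried the pair of Ighv11-2 with Igkv14-126.

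Lambda and kappa cells were compared within libraries. Lambda cells were taken as those with at least 3 Iglv UMIs and more Iglv than Igkv UMIs (630 assigned cells), and kappa cells as those with at least 3 Igkv and fewer than 3 Iglv UMIs (7922). This gate was chosen after the data were seen, because 92.1% of the 6246 cells with more Iglc than Igkc UMIs had more Igkv than Iglv UMIs. In edgeR's test with the library as a block 4 of 85 genes (4.71%) were higher in lambda cells and 0 lower. Ighv10-1 had 3.95%, 2.84%, 2.13% and 6.25% of lambda cells (both Cured libraries, then both Relapsed libraries), against 1.50%, 0.864%, 1.06% and 1.47% of kappa cells (log2 fold change 1.70, SE 0.46, adjusted p = 0.0255). Ighv10-3, of the same family, had 3.29%, 3.41%, 4.26% and 4.81% of lambda cells against 1.27%, 1.48%, 0.865% and 1.42% of kappa cells (1.58, SE 0.46, adjusted p = 0.0315). Both were higher in lambda cells in 4 of 4 libraries. Ighv5-17 averaged 4.42% ± 1.60 of lambda cells against 1.84% ± 0.368 of kappa cells (1.26, SE 0.38, adjusted p = 0.0350), and Ighv8-8 6.09% ± 3.80 against 2.91% ± 0.507 (0.94, SE 0.30, adjusted p = 0.0427; SD, n = 4 libraries). The calls rest on few cells, 26 lambda cells for Ighv10-1, and 0 passed without any 1 of the 4 libraries, with the log2 fold change of Ighv10-1 between 1.43 and 1.83. TMM scaling moved the median of the 85 genes from -0.22 to -0.62 and gave 0 higher and 1 lower call. A comparison of transitional-like with mature-like cells was not made, since 6 assigned cells had a Cd93 and no Fcer2a UMI, against 4417 with Fcer2a and no Cd93 UMI.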

How the data were processed

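Blood leukocyte RNA was captured with a 10x 5′ kit, and the deposited values are raw UMI counts per feature and barcode, made by the authors with Cell Ranger 3.1.0 on mm10, per the submitters' processing notes. Its annotation release is not given in the sources used here. Features were matched by identifier to GENCODE M21 (GRCm38). Barcodes with at least 200 genes and at most 10% mitochondrial UMIs were kept, B cells taken at 3 UMIs of Cd79a, Cd79b and Ms4a1, and each cell given the Ighv gene with most UMIs, ties left out. The total was 7184045 to 10840397 UMIs per library, and intervals are exact binomial ones (95%) for counting error only.

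Counts were fitted with edgeR 4.0.16 (quasi-likelihood, Benjamini-Hochberg, R 4.3.3), on UMIs of all features (TMM, count filter) and on cells per gene with at least 10 cells (library size the assigned cells), DESeq2 1.42.0 as an alternative. A library is a pool of mice. In the main UMI fit p-values measure the spread between pools, drawn partly from all features. For the main fits of cell counts the spread was estimated in common over the genes or families. Their p-values thus do not measure the spread of a single gene or family between pools, and the cells of a pool are not replicates. Fits were also run on simulated counts, and no result of these runs is given here. Identity between transcripts used edlib 1.3.9.

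Named genes were the 12 most used, the called genes of each comparison (at most 10, filled to 3 by smallest p), the 3 most variable with at least 40 cells, 5 textbook genes and those leading in cells with a Cdkn2a UMI. Members and lists were chosen with earlier results of these data known. The transitional comparison could not be made, and the lambda gate was replaced after the data were seen.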

Additional observations from a re-analysis of the deposited data

How the results depend on the processing

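Of the results that answer a comparison, 0 genes and 0 families were called between Cured and Relapsed cell counts under every alternative run. Ighv calls on summed UMIs were 0, against 25 (of 163 over all features) with no count filter and 0 to 56 with a library left out. The replicate numbers do not pair the libraries (correlation of deviations 0.07 across 10451 features), and the fit with the replicate number as a block called 18 Ighv genes on UMIs (of 63 over all features; Ighv12-3, Ighv1-5 and Ighv1-9 among them, adjusted p = 1.54e-05, 0.00311 and 0.00503) and 0 on cell counts. For cells with a Cdkn2a UMI 10 of 85 genes were called, against 5 of 115 with no count filter and 5 of 85 without the Jchain cells. The count was 4 of 77 with a top gene of at least 2 UMIs and 80% of Ighv UMIs, and 52 of 85 with TMM factors. It was 4 to 5 with a library left out and 12 of 32 against cells of matched depth. Of the families 4 of 15 were called, against 10 of 15 with TMM factors and 3 to 7 with a library left out. The family count was 6 of 13 with the stricter top gene and 6 of 11 at matched depth. TMM factors turned Ighv5-4 to -0.26, Ighv5-6 to -0.31 and the Ighv5 family to -0.26, by their construction. Without 1 library Ighv8-6 (Cured over Relapsed) ran between -2.49 and 0.0358. For lambda cells 4 genes were called, against 1 with TMM factors, 0 with the stricter top gene, 0 with the Iglc gate, where Ighv8-8 was at -0.18, and 0 with any library left out. Except for TMM and the left-out libraries, the cause was not tested. Without 1 library the Cured minus Relapsed difference ran between 6.84 and 30.7 points for cells with an Ighv UMI, 0.50 and 2.93 for the effective number of genes and -2.38 and 0.43 points for the 10 most used genes. The alternatives of the transitional comparison were not run. With 2 pools per group and 1221 assigned cells in Relapsed replicate 1, small shifts of rare genes are not detectable.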
